A study of Homo sapiens with 8 samples.

Results

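Desmosomes are spot-like junctions that tie the keratin filaments of neighbouring keratinocytes together. Desmogleins and desmocollins, the desmosomal cadherins, bind across the gap between cells in a calcium-dependent way, and plakoglobin, plakophilins and desmoplakin form the plaque that links their tails to keratin. In adherens junctions the classical cadherin E-cadherin plays the same part for the actin cytoskeleton, through catenins. Loss of some of these proteins, or antibodies against some of them, causes blistering of skin or mucosa, and desmoglein 3 is the main target of the antibodies of pemphigus vulgaris.

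The genes described are the desmosomal cadherins DSG2, DSG3, DSC2 and DSC3, the plaque genes DSP, JUP, PKP1 and PKP3, the tetraspan membrane protein gene PERP and the E-cadherin gene CDH1. They were taken by symbol, and 10 of the 61806 genes of the deposited table are members. The libraries come from wildtype N/TERT-1 cells, an immortalized human epidermal keratinocyte line, which were treated either with ethanol, the solvent, or with oligomycin and antimycin A (O/A), inhibitors of the mitochondrial ATP synthase and of complex III. There are 4 libraries of each condition, from independent experiments. Treatment lasted 4 hours, and the labels give neither dose nor time. Calcium chloride is listed as a supplement in the general culture protocol but not in the study's account of the cultures for mRNA-seq.

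Between 17210404 and 20999927 reads per library were counted on genes, with overlapping ranges for both conditions. The basal keratinocyte markers KRT5, KRT14, KRT15, TP63, ITGA6, ITGB4 and COL17A1 were all expressed, with a summed level of 2913 to 3176 FPKM with ethanol and 2527 to 2684 FPKM with O/A, and 2 of the 7, KRT5 and KRT15, were called lower in O/A. FPKM is the number of counted fragments per kilobase of exon, scaled to the size of the library. Of the 17 markers of fibroblasts, melanocytes, and immune or endothelial cells, 14 stayed under 10 counts in every library, and the others were COL1A1 with 376 to 557 counts, PMEL with 17 to 45 and CD14 with 4 to 12. MLANA and TYR, which define melanocytes, were listed at 0 in each library, where a count of 0 allows up to 3 (counting error only).

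DSG3 rose by 1.99-fold and PKP3 fell by 17.6%, and the remaining 8 genes stayed within the fold change threshold, some with small differences. A gene is called here when its adjusted p-value does not exceed 0.05 by the quasi-likelihood test of edgeR and its absolute log2(FC) is above 0.25, with TMM scaling and adjustment over all 14893 genes tested. All 10 members passed the filter of at least 10 counts in at least 4 libraries. Of them 2 were called, 1 higher and 1 lower, where 34.7% of all genes tested were called, 15.8% higher and 18.9% lower. The median log2(FC) was 0.03 over the 10 genes and -0.0004 over all genes. Without the fold change threshold 7 of the 10 reached adjusted p-values of 0.05 or less, 4 higher and 3 lower, against 53.7% of all genes. In bulk libraries a change in the number of cells of a kind and a change in RNA per cell cannot be told apart.

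**Figure D1:**
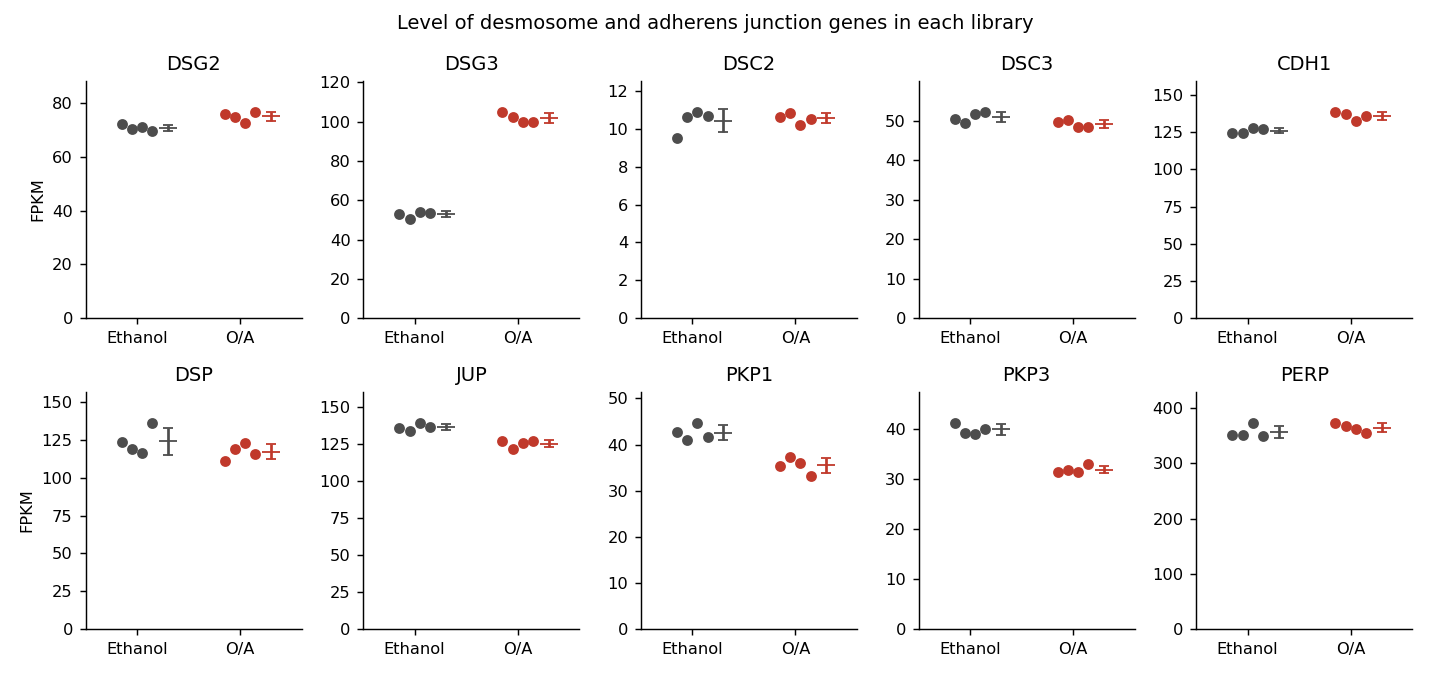
FPKM of each of the 10 genes (vertical axes from 0) in the 4 ethanol and the 4 O/A libraries, with points for libraries and a bar for mean ± SD beside them. The libraries of DSG3 lie at 50.5 to 54.0 in ethanol and 100.01 to 104.94 in O/A, while the other genes show small shifts or none.

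DSG3 encodes desmoglein 3, the desmoglein of the deep layers of stratified epithelia. It had 53.1, 50.5, 54.0 and 53.7 FPKM with ethanol replicates 1 to 4 and 104.94, 102.42, 100.03 and 100.01 FPKM with O/A replicates 1 to 4. Every O/A library lay far above every ethanol library, and the gap between the conditions was many times the spread within them. The mean was 52.8 ± 1.57 FPKM (SD, n = 4) with ethanol and 102 ± 2.35 FPKM (SD, n = 4) with O/A. Fitted on the counts, 4953 to 6287 in ethanol and 9890 to 10750 in O/A, the log2(FC) was 0.99 (standard error 0.026, 95% confidence interval 0.94 to 1.05, adjusted p = 5.47e-35 by the quasi-likelihood test of edgeR). Among the 299 genes tested whose mean level (library-scaled counts) was at least that of DSG3, 17 had a higher log2(FC).

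DSG2 encodes desmoglein 2, the desmoglein of simple epithelia and of proliferating keratinocytes. It had 72.0, 70.3, 71.0 and 69.7 FPKM with ethanol and 75.9, 74.9, 72.5 and 76.7 FPKM with O/A, in order of the replicate numbers. The groups did not overlap, but their nearest libraries were less than 1 FPKM apart. The log2(FC) of 0.13 (standard error 0.025, adjusted p = 1.67e-05 by the quasi-likelihood test of edgeR) was within the threshold.

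The desmocollins, the partners of desmogleins in the same junction, showed no call. DSC3, the desmocollin of basal keratinocytes, had 49.3 to 52.2 FPKM with ethanol and 48.3 to 50.2 FPKM with O/A, and the libraries of both conditions overlapped. Its log2(FC) was -0.0039, with a 95% confidence interval from -0.06 to 0.05. DSC2, the most widely expressed desmocollin, was the lowest of the 10 genes, with 9.52 to 10.9 FPKM with ethanol and 10.22 to 10.85 FPKM with O/A. For DSC2 the log2(FC) was 0.06, with an interval from -0.0042 to 0.13, so that a change of the size seen for DSG3 lies outside the intervals of both desmocollins.

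**Figure D2:**
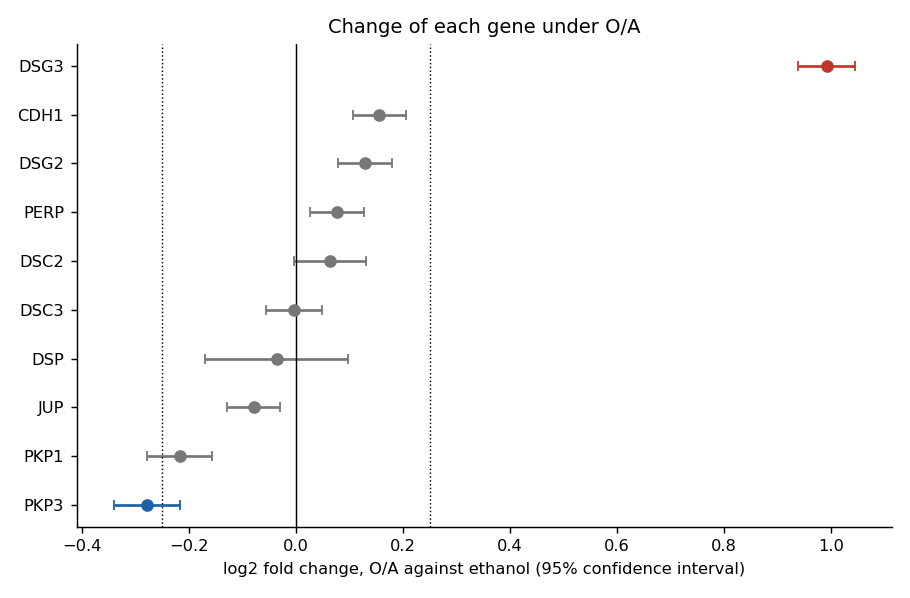
Log2 fold change of the 10 genes in O/A against ethanol (horizontal axis) from the fit on counts, with 95% confidence intervals and dotted lines at the threshold of 0.25. DSG3 lies at 0.99 and PKP3 at -0.28, and the other 8 genes lie between -0.22 and 0.16.

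The change in DSG3 altered the makeup of the desmoglein transcripts. DSG3 made up 41.8% to 43.5% of the summed FPKM of DSG1, DSG2, DSG3 and DSG4 with ethanol and 56.6% to 57.98% with O/A, and the sum itself went from 124 ± 2.00 to 177 ± 3.44 FPKM (SD, n = 4 per condition). The ratio of DSG3 to DSG2 within a library, in FPKM, was 0.737, 0.719, 0.760 and 0.770 in ethanol and 1.38, 1.37, 1.38 and 1.30 in O/A. Thus in FPKM the order of the pair was the opposite in the 4 O/A libraries. That order rests on the division by gene length. In counts DSG2 stayed above DSG3 with O/A, at 12746 to 13368 against 9890 to 10750. The ratio of DSG3 to DSC3 went from 1.04 ± 0.014 to 2.07 ± 0.029 (SD, n = 4). Such ratios do not depend on how libraries are scaled to each other. In a two-sided exact permutation test each of these ratios gave p = 0.0286, the lowest value possible with 4 libraries per condition, which over the 7 ratios compared gave an adjusted p of 0.0667. DSC3, in contrast, kept a similar place among the desmocollins, with 82.0% to 84.0% of their summed FPKM with ethanol and 81.9% to 82.2% in O/A.

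The desmosomal cadherin genes lie side by side on chromosome 18 of GRCh38, from 30989365 to 31549008 over 559.6 kb, in the order DSC3, DSC2, DSC1, DSG1, DSG4, DSG3 and DSG2. DSG3 spans chr18:31447741-31478702 on the plus strand, and DSG2 begins on the same strand 19.5 kb beyond its end, at 31498177. DSG1, DSC1 and DSG4, which belong to differentiated layers and hair, were nearly silent, reaching at most 10, 22 and 7 counts per library. A change in DSG1 or DSG4 was not detectable at this depth. DSC1 was tested at 6 to 22 counts and its log2(FC) of 0.26 had a standard error of 0.30. Of the 5 genes of the cluster that were tested, only DSG3 was called. Within 300 kb of either end of the cluster, the closest gene called was B4GALT6, a galactosyltransferase gene on the far side of DSG2, which was lower in O/A (log2(FC) -0.56, standard error 0.068).

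The promoter sequences of DSG3, of its nearest active neighbour DSG2 and of DSC3, whose level was close to that of DSG3 with ethanol, are shown because only DSG3 among them was called. They run from 250 bases before to 50 after the start given by RefSeq (GRCh38.p14), and 8 of the 10 genes have such a sequence in the table used, PKP3 and CDH1 not. Capitals mark matches on either strand to TGATGNAA, a composite element that C/EBP and ATF family factors bind, and to CAGGTG, the E-box that SNAI and ZEB repressors bind. The motifs were chosen with the changes and the sequences already known.

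DSG3, chr18:31447491-31447790, plus strand: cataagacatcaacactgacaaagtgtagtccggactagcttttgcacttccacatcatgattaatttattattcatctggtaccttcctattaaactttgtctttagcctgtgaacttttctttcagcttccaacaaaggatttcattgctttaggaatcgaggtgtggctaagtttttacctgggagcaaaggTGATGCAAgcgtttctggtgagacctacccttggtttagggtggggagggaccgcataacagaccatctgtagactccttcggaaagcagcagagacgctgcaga
DSG2, chr18:31497927-31498226, plus strand: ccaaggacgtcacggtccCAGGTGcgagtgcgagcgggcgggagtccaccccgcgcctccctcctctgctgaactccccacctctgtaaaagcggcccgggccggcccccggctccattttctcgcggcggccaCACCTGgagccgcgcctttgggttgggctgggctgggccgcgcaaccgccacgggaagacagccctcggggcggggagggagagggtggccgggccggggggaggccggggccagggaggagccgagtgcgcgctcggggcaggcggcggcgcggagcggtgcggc
DSC3, chr18:31042693-31042992, minus strand: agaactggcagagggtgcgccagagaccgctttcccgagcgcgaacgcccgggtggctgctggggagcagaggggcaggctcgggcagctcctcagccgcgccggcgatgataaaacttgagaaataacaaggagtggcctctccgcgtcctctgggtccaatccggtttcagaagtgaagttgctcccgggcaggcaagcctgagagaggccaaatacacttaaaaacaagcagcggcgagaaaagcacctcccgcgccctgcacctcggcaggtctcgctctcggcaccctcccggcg

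The DSG3 promoter held TGATGCAA, which begins at position -55 from the start, and no CAGGTG. None of the other promoters of the 8 genes held TGATGNAA, which 3.62% of the 35116 promoters in the table hold. DSG2 had CAGGTG on either strand at -232 and -116, and this motif was in 20.6% of all promoters, among them those of DSP and 1 of the 2 listed for each of DSC2 and JUP. DSC3 had no match to these motifs. Another motif, TGANTCA, the AP-1 element, was in 7.71% of all promoters and among the 8 genes only in that of PERP, as TGAGTCA at position -101. Binding to these letters was not measured.

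PKP3 and PKP1 encode plakophilins, armadillo proteins that cluster desmosomal cadherins and recruit desmoplakin. PKP3, at chr11:392614-404908, had 41.3, 39.2, 39.1 and 40.1 FPKM with ethanol and 31.4, 31.9, 31.4 and 33.0 FPKM with O/A. Each O/A library was well below each ethanol library. The log2(FC) of PKP3 was -0.28 (standard error 0.031, 95% confidence interval -0.34 to -0.22, adjusted p = 5.61e-11 by the quasi-likelihood test of edgeR), so the interval extends to both sides of the threshold.

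PKP1, the plakophilin of stratified epithelia, had 42.8, 41.0, 44.7 and 41.7 FPKM with ethanol and 35.4, 37.2, 35.9 and 33.3 FPKM with O/A. The conditions were apart here as well. The log2(FC) was -0.22 (standard error 0.030, adjusted p = 3.45e-08 from the same edgeR test), within the threshold, but PKP1 was called lower on log2(FPKM + 0.1) at -0.26, on log2(FPKM + 1) at -0.26 and under quantile normalization at -0.29. The ratio of PKP1 to PKP3 was 1.07 ± 0.052 in ethanol and 1.11 ± 0.071 in O/A (SD, n = 4) and overlapped between the conditions. PKP2, the plakophilin of simple epithelia and heart, was not called either, at 11.5 ± 0.390 FPKM with ethanol and 10.1 ± 0.418 FPKM with O/A (SD, n = 4, log2(FC) -0.15). Summed, the 3 plakophilins had 92.2 to 95.9 FPKM with ethanol and 75.8 to 79.5 FPKM with O/A.

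JUP encodes plakoglobin, the armadillo protein that binds cadherin tails in both desmosomes and adherens junctions. It had 135.4, 133.7, 139.1 and 136.5 FPKM with ethanol and 126.5, 121.5, 125.2 and 126.5 FPKM with O/A. The libraries did not overlap, and the log2(FC) of -0.08 (standard error 0.025, adjusted p = 0.00586 by the quasi-likelihood test of edgeR) was within the threshold. CTNNB1, the gene of its close relative beta-catenin, had a log2(FC) of -0.10, and the ratio of CTNNB1 to JUP overlapped between conditions, at 0.431 ± 0.014 and 0.424 ± 0.0060 (SD, n = 4).

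DSP encodes desmoplakin, which attaches keratin filaments to the plaque, and its log2(FC) had the largest standard error of the 10 genes, 0.057. Its levels were 123.9, 119.3, 116.8 and 136.6 FPKM with ethanol and 111.2, 119.2, 122.9 and 116.0 FPKM with O/A. Ethanol replicate 4 was the highest library, and without it the log2(FC) went from -0.04 to 0.02, neither of which was called. The 95% confidence interval ran from -0.17 to 0.10. Reads on DSP-AS1, which overlaps DSP, came to at most 0.27% of those on DSP. The reads assigned to any gene that overlaps a member came to at most 0.314% of it. How reads in the shared parts were assigned is not given, and any left unassigned are not in these shares.

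PERP, a p63 target gene whose product is needed for stable desmosomes in stratified epithelia, was the most abundant of the 10. It had 352, 352, 373 and 349 FPKM with ethanol and 374, 368, 362 and 354 FPKM with O/A. The groups overlapped, with a log2(FC) of 0.08 (adjusted p = 0.00767 by the quasi-likelihood test of edgeR) within the threshold. CDH1, at chr16:68737292-68835537, had 124.7, 124.2, 127.6 and 127.0 FPKM with ethanol and 138.5, 137.0, 132.4 and 135.6 FPKM with O/A. All O/A libraries of CDH1 were above all ethanol libraries, and the log2(FC) was 0.16 (standard error 0.024, adjusted p = 2.88e-07 from the same edgeR test), within the threshold.

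CDH3, the gene of P-cadherin, the other classical cadherin of basal keratinocytes, had 151 ± 4.46 FPKM with ethanol and 156 ± 3.10 FPKM with O/A (SD, n = 4). The ratio of CDH3 to CDH1 was 1.20 ± 0.023 in ethanol and 1.147 ± 0.020 in O/A (SD, n = 4), lower in every O/A library (two-sided exact permutation test, p = 0.0286, adjusted p = 0.0667 over 7 ratios). The size of the small differences depended on the scaling. Under quantile normalization the log2(FC) was 0.01 for DSG2 (adjusted p = 0.749 with limma), 0.03 for CDH1 (adjusted p = 0.196) and 0.03 for PERP (adjusted p = 0.386), while that of DSG3 was 0.86. The lower values were larger in size under it, at -0.22 for JUP (adjusted p = 7.72e-11 with limma), -0.12 for DSC3 (adjusted p = 0.000106) and -0.24 for CTNNB1, all within the threshold.

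Across all 10 genes, the TMM-scaled libraries of O/A and ethanol did not overlap for 6, where 47.6% of all genes tested showed such a separation. O/A was above ethanol for DSG2, DSG3 and CDH1 and below it for PKP1, PKP3 and JUP. In FPKM, which is per length, the order in ethanol was PERP, JUP, CDH1, DSP, DSG2, DSG3, DSC3, PKP1, PKP3 and DSC2, and neighbours overlapped for CDH1 and DSP, for DSG3 and DSC3, and for PKP1 and PKP3. In O/A the order was PERP, CDH1, JUP, DSP, DSG3, DSG2, DSC3, PKP1, PKP3 and DSC2, and only JUP and DSP overlapped. In this order per length, DSG3 thus stood apart from DSC3, which it overlapped in ethanol, and above DSG2.

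The other genes of the cell junctions were followed in 7 lists of 85 genes, of which 80 were tested. Of these 30 were called (37.5%), 19 higher and 11 lower, with a median log2(FC) of -0.0012. Over all genes tested 34.7% were called, 15.8% higher and 18.9% lower. These shares over all genes also stand beside the counts of each list given below. Among the other desmosome genes, 5 of 7 were tested and 1 was called. This was EVPL, the gene of envoplakin, a plakin that links desmosomes to the cornified envelope, which fell from 7.56 ± 0.329 to 5.13 ± 0.161 FPKM (SD, n = 4, log2(FC) -0.52, standard error 0.045). PPL, the gene of its partner periplakin, had a log2(FC) of 0.05.

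The other adherens junction genes moved in both directions, 3 higher and 3 lower of 18 tested, with a median of -0.01. VCL, which encodes vinculin, a protein that couples the catenin complex to actin, fell most, from 40.3 ± 0.879 to 24.7 ± 1.05 FPKM (SD, n = 4, log2(FC) -0.66, adjusted p = 4.71e-26 by the quasi-likelihood test of edgeR). AP3M1 overlaps VCL on the opposite strand, and its total count was 31.5% of that of VCL. The strand setting and the number of reads in the shared part are not given, so the level of VCL is uncertain. NECTIN1, an immunoglobulin-like adhesion receptor gene, was lower at -0.30. CTNND1, the p120 catenin gene, was called lower at -0.28, but at -0.24 without O/A replicate 3 it was within the threshold. A pair of annotated genes overlap CTNND1 on the same strand, each with at most 9 counts, and how reads in the shared part were assigned is not given, so its level is uncertain. CTNNA1, the alpha-catenin gene, had 80.5 ± 0.490 FPKM with ethanol and 79.2 ± 1.07 FPKM with O/A (SD, n = 4) and was not called.

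Tight junctions seal the space between epithelial cells, and of 17 of their genes 7 were higher and 2 lower, with a median log2(FC) of 0.12. CLDN1, the main claudin of the epidermis, rose from 10.49 ± 0.469 to 29.0 ± 0.626 FPKM (SD, n = 4, log2(FC) 1.51, adjusted p = 2.66e-35 by the quasi-likelihood test of edgeR). OCLN, which encodes occludin, rose at 0.79, and CGN, the gene of the scaffold protein cingulin, fell at -0.86. Of 7 gap junction genes 2 were higher and 2 lower. GJA1, the gene of connexin 43, fell from 31.3 ± 0.700 to 22.4 ± 1.37 FPKM (SD, n = 4). GJB2 was lower at -0.34 (adjusted p = 0.0253 by the quasi-likelihood test of edgeR), a call that was lost in 5 of 16 alternatives. Among these were the fits without ethanol replicate 4, O/A replicate 3 or O/A replicate 4, with log2(FC) values of -0.34, -0.32 and -0.29. The hemidesmosome genes, which anchor keratin to the basement membrane, gave 1 call among 9, DST at -0.45, and a median of 0.08.

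**Figure D3:**
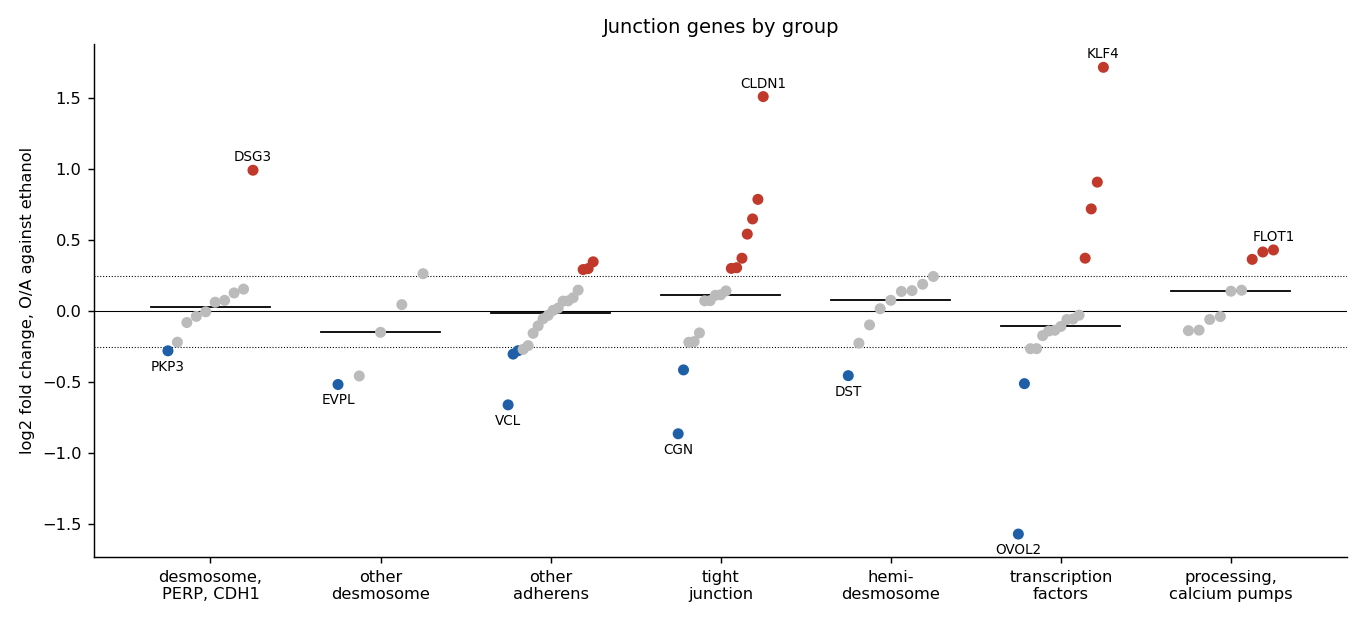
Log2 fold change in O/A against ethanol (vertical axis) of each junction gene tested, by group (gap junction genes are not drawn), with red for genes called higher, blue for genes called lower, grey for genes not called, a line for the median of the group, and dotted lines at the threshold. CLDN1 at 1.51 and KLF4 at 1.72 lie above DSG3 at 0.99, and OVOL2 at -1.57 lies lowest.

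Of 18 transcription factors that repress or activate epithelial junction genes, 15 were tested, 4 of them higher and 2 lower. KLF4, a factor of epidermal barrier formation, rose from 7.67 ± 0.344 to 24.4 ± 0.912 FPKM (SD, n = 4, log2(FC) 1.72), and KLF5, its relative in basal keratinocytes, from 43.9 ± 2.46 to 79.9 ± 3.26 FPKM (log2(FC) 0.91). OVOL2, a repressor of mesenchymal genes, fell at -1.57, on 35 to 165 counts per library. It shares its locus with SNX5 (4395 to 5932 counts) and SNORD17 (101 to 145) on the same strand and MGME1 (1056 to 1846) on the opposite strand. Reads in the shared parts may be missing from OVOL2, and how they were assigned is not given, so its level is uncertain. Also called were OVOL1 (log2(FC) 0.72) and GRHL1 (0.37), both higher, and GRHL2 (-0.51), lower. Genes that overlap these were not examined. The E-cadherin repressor SNAI2 had a log2(FC) of -0.14, within the threshold, and TP63 had -0.05. SNAI1, ZEB1 and ZEB2 had at most 23, 18 and 7 counts and were not tested. Of 9 genes that process or internalize junction cadherins or pump calcium, 3 were higher and none lower by edgeR at the thresholds. At adjusted p-values of 0.05 or less without the fold change threshold, 5 were higher and 2, CBLL1 and FLOT2, lower. The higher ones included the calcium pump genes ATP2A2 (log2(FC) 0.15) and ATP2C1 (0.14), both within the threshold. Those called were FLOT1 (0.43), a flotillin gene, PRKCA (0.42), the gene of protein kinase C alpha, which was not called on log2(FPKM + 1) at 0.20, and ADAM17 (0.37), a sheddase gene that IAH1 overlaps on the opposite strand with 31.7% of its counts.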

How the data were processed

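The authors selected mRNA with oligo(dT), sequenced paired-end reads, aligned them with HISAT2 2.0.1 to GRCh38.p13 and made the deposited counts per Ensembl gene with HTSeq 0.6.1. The Ensembl release and the strand setting are not given in the sources used here. The deposited FPKM values were computed by the authors from the same counts, without TMM scaling, so fold changes of mean FPKM and fitted values differ slightly. A table of the authors' DESeq2 comparison (mean, fold change, standard error, statistic and p-values) was not used.

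Counts of 4 O/A and 4 ethanol libraries, grouped by their titles, were compared with edgeR 4.0.16 in R 4.3.3 (TMM, robust quasi-likelihood test, keeping genes that reached 10 counts in 4 or more libraries). Standard errors are the log2 fold change divided by the root of F. Ratios were compared by exact permutation tests (scipy 1.17.1). The members and the gene lists were chosen with earlier results of these data known. Named were the members, their closest relatives, and the 3 called genes of largest change per list with at least 1 FPKM. Named beside this rule, after their values were seen, were marker genes, B4GALT6, PPL, CBLL1, FLOT2, ATP2A2 and ATP2C1. The same holds for SNAI1, SNAI2, ZEB1, ZEB2, TP63, OVOL1, GRHL1 and GRHL2. The promoter motifs were also chosen with results known. Some genes that the rule names are not reported here. Alternatives used DESeq2 1.42.0, limma 3.58.1 on log2 values, other scalings and filters, the replicate block, and each library left out. The fits across genes were tested on simulated counts with known changes. Libraries of 1 condition differed by more than sampling noise (chi-square per degree of freedom 1.71 to 5.24).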

Additional observations from a re-analysis of the deposited data

Results flagged for a closer look

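Groups of 4 libraries were examined for the 33 tested genes that are members or named by the rule. In 3 of 66 groups, 1 library lay far from the other 3 by Dixon's criterion, where chance gives 3.3. In TMM-scaled CPM, DSG3 had 277.8 in ethanol replicate 2 against 293.4 to 295.6 in the other ethanol libraries, a gap far smaller than the difference between the conditions. CTNNA1 had 708.8 in ethanol replicate 1 against 697.0 to 699.0. FLOT1 had 57.3 for O/A replicate 3, with the remaining O/A libraries at 49.4 to 50.7.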

How the results depend on the processing

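DSG3 was called higher and PKP3 lower in each of the alternatives run except the threshold of 1 on the absolute log2(FC), which called none of the 10 genes by edgeR, although 7 had adjusted p-values of 0.05 or less and DSG3 lay at 0.99. Across the others the log2(FC) of DSG3 ran from 0.86 to 1.01 and that of PKP3 from -0.33 to -0.25. Without a fold change threshold 7 members, 49 other junction genes and 7999 genes in all were called. With the threshold of 1 the counts were 0, 3 and 797, and with a mean of at least 5 FPKM 2183 genes were called in all. Leaving out each library in turn gave 2 members (2 to 2), 28 to 31 other junction genes and 4945 to 5071 genes in all. Of the members with small differences, JUP had an adjusted p of 0.0848 by edgeR without O/A replicate 2. PERP had an adjusted p of 0.3505 with limma on log2(FPKM + 0.1) and of 0.358 on log2(FPKM + 1).

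Values near 0 changed sign. DSC3 was at 0.0034 with DESeq2 and with median-ratio scaling and between -0.0134 and 0.0156 with a library left out, and DSP between -0.0605 and 0.02. CDH3 was at -0.008 under quantile normalization, and CTNNA1 at -0.1003 under it and at -0.0235 and -0.0233 on log2(FPKM + 0.1) and log2(FPKM + 1). None of these was called, and the cause was not tested.

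Libraries with the same replicate number were at most weakly alike (correlations of deviations from -0.09 to 0.1616). This does not decide whether they came from the same experiment. A replicate block gave 5160 calls in all, 2 among the members and 29 among the other junction genes, with GJB2 no longer called at -0.3431. For DSG1, DSG4 and DSC1 depth limits what can be seen.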

Other observations

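Among 8 markers of differentiated keratinocytes, 4 were tested, with a summed level of 23.2 to 26.5 FPKM in ethanol and 24.4 to 27.1 FPKM in O/A. KRT10, an early keratin of differentiation, rose (log2(FC) 0.47), and IVL, the gene of the envelope protein involucrin, fell (log2(FC) -0.31). KRT1 and LORICRIN were listed at 0 in each library. The part of differentiation in the changes of DSG3 and PKP3 was not tested.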
